A study of Mus musculus with 6 samples.

Results

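Glycolysis and hypoxia response genes were followed in mouse corneas before and after an alkali burn. The set holds 38 genes. A row of the deposited gene table belonged to the set when its gene name, or 1 of several names joined by commas, was a listed gene. All 38 genes were found, on 39 of the 28539 loci of the table. Pfkm accounts for the extra locus. It is the only name of 1 locus and shares another with its neighbour Senp1, and both loci have the same coordinates. By role, 22 genes serve glycolysis from glucose uptake to lactate export and the fate of pyruvate, 5 form the oxygen-sensing machinery around the hypoxia-inducible factors (HIF), and 11 are classical HIF target genes outside glycolysis.

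Whole corneas of female C57BL/6J mice aged 6 to 8 weeks were collected without treatment (day 0), 5 days after an alkali burn (day 5) and 15 days after it (day 15), with 2 samples for each day. The labels call the day 15 group regression. They do not say how many corneas or animals were pooled in a sample, or whether the 2 samples of a day came from separate animals. Polyadenylated RNA was sequenced, and the values are the authors' FPKM (fragments scaled by transcript length and library size), 1 value for each day pooled over its samples, with the authors' interval. There were 0 columns for single samples, so the spread between replicates is unknown and no test was run. The bulk values cannot tell fewer cells of a type apart from less RNA per cell.

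Glycolysis splits glucose into pyruvate, and lactate dehydrogenase and the lactate transporters dispose of pyruvate when it does not enter mitochondria. When oxygen is plentiful, prolyl hydroxylases mark the HIF alpha subunits for breakdown by the VHL complex, and when oxygen is short the alpha subunits persist and bind short DNA elements near glycolytic and other target genes. The cornea has no blood vessels of its own and takes much of its oxygen from the air through the tear film, and its epithelium is known for a high rate of glycolysis and lactate production. An alkali burn destroys epithelium and stroma, draws in leukocytes and is a classical model of corneal vessel growth.

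A locus is called apart between 2 days when the authors' intervals do not overlap, the FPKM is at least 1 on the higher day, and the log2 ratio of (FPKM + 1) is at least 1 in size. All log2 ratios use that pseudocount of 1 and are therefore too small for genes near or under it, while a fold divides the FPKM values as deposited. Ranges in parentheses after an FPKM are the authors' interval for that day. Both burn groups are set against the same day 0 value, so the comparisons with day 0 are not independent of each other.

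The core of the hypoxia response element is ACGTG or GCGTG, and the promoters of the genes with the largest ratios in each direction are shown to let these letters be seen. RefSeq promoter windows on GRCm38.p6 run from 250 bases before the start site to 50 bases from it on, and 34 of the 38 genes had at least 1 window, Ero1l under the name Ero1a. Slc2a3, Epas1, Bnip3l and Ndrg1 had none. The 250 bases before the start site are given 5′ to 3′ on the gene's strand, with ACGTG in capitals where it lies on the gene's strand and CACGT in capitals where the match lies on the opposite strand. GCGTG would be marked in the same way, and 0 matches to it on either strand lie in the stretches printed here. Car12 was the member with the largest ratio, Slc16a3 and Hk2 were the next among members higher and apart, and Egln3 was the 1 member lower and apart.
Car12 (chr9:66713436-66713685, plus strand): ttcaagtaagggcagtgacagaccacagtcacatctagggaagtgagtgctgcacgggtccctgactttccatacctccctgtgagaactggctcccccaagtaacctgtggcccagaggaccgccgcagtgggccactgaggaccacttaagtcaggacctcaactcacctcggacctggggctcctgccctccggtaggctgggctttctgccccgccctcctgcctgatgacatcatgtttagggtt
Slc16a3 (chr11:120948817-120949066, plus strand): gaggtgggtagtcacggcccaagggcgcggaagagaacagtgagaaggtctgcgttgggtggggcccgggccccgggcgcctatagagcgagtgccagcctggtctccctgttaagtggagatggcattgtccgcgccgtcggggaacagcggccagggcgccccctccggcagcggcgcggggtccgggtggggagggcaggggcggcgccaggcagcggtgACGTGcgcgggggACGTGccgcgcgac
Hk2 (chr6:82774455-82774704, minus strand): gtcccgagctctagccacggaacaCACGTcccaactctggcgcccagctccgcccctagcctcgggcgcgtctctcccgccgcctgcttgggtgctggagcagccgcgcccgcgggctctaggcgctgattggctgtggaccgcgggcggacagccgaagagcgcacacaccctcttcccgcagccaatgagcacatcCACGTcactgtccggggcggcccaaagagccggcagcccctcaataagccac
Egln3 (chr12:54203875-54204124, minus strand): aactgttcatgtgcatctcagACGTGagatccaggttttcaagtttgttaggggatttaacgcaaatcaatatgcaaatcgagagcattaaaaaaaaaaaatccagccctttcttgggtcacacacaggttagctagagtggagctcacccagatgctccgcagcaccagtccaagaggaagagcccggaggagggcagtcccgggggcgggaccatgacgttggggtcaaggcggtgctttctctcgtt

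The Car12 stretch held 0 matches to ACGTG. The Slc16a3 stretch held 2, whose first bases lie 27 and 14 bases before the start site. Hk2 had 2 on the opposite strand, 226 and 52 bases before it, and Egln3 had 1 at 229 bases. Over whole windows, counted on both strands, ACGTG was in 26 of 47 member promoters (55.3%, against 19.6% of all 32851 promoters), and GCGTG was also in 26 (55.3%, against 32.4%). At least 1 of these motifs was in 37 (78.7%, against 43.8%). By gene, 24 of the 28 members with a higher value at day 5 than at day 0 and with a window had either motif, and so did 5 of the 6 with a lower value, where 46.7% of all genes with a window had one. The median GC content before the start site was 62% over member promoters and 52.4% over all, and its part in these shares was not tested. A match is a description of letters and shows no binding.

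At day 5, 6 of the 39 loci lay above day 0 and apart from it, namely Hk2, Pfkp, Ldhb, Slc16a3, Bnip3 and Car12. Over all loci tested, 3.42% were higher and apart. Egln3 alone was lower and apart, against 2.5% of all loci. The other 32 loci were not apart. A higher value, whatever its size, was given for 29 of the 39 loci, where 44.9% of all loci had one. The median log2 ratio was 0.64 over the members and -0.09 over all loci tested.

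At day 15, Pfkp, Bnip3 and Car12 were higher and apart from day 0, 3 loci of 39 against 2.91% of all loci. Egln3 was again lower and apart, against 1.81% of all loci. A higher value than at day 0 was given for 27 loci, where the share over all loci was 43.1%, and the median log2 ratio was 0.43 against -0.10 over all loci. Between day 15 and day 5, 0 loci were apart in either direction, where 0.395% of all loci were higher and apart and 0.388% lower and apart. Of the 39 loci, 15 had a higher value at day 15 than at day 5 (48.8% of all loci), with a median log2 ratio of -0.09.

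Day 5 was the day of the highest value for 22 of the 39 loci, day 0 for 9 and day 15 for 8. Over the 15900 loci that could be ranked, the highest value fell on day 5 for 31.4%, on day 0 for 46.3% and on day 15 for 22.3%. By role, 15 of the 23 glycolysis loci were highest at day 5, as were 6 of the 11 HIF targets, while 3 of the 5 genes of the HIF machinery were highest at day 0.

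**Figure D1:**
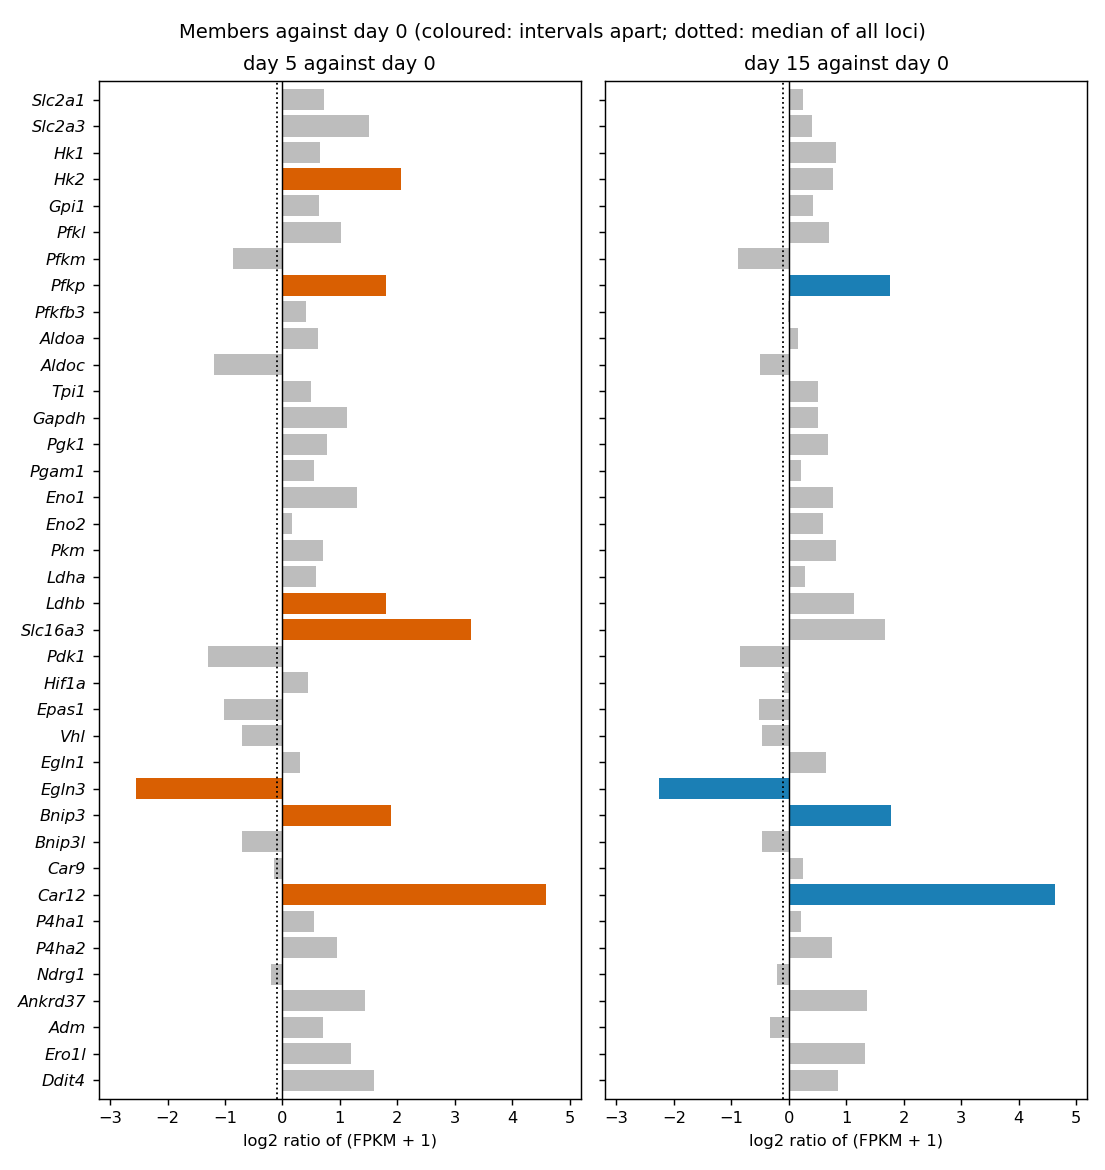
Log2 ratio of (FPKM + 1) against day 0 for the 38 members, at day 5 (left) and day 15 (right), as bars from 0. Each member is shown on the locus that names it alone, and some of these loci also span other genes. Coloured bars are members whose intervals are apart, grey bars are not apart, and the dotted line is the median of all loci tested (-0.09 and -0.10). Car12 has the longest bar on both days (4.59 and 4.64) and Egln3 the longest bar to the left (-2.54 and -2.26).

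Glucose uptake and its first phosphorylation had higher values at day 5. Slc2a1, the widely expressed glucose transporter GLUT1, was at FPKM 49.0 (25.7 to 72.3) at day 0, 81.6 (44.3 to 118.8) at day 5 and 58.7 (31.4 to 85.9) at day 15, with intervals that overlap between all days. Slc2a3, the high-affinity transporter GLUT3, was the lowest member at day 0 with 0.515 (0 to 1.04) and stood at 3.32 (0.957 to 5.68) at day 5 and 1.01 (0.0551 to 1.97) at day 15. The day 5 value was 6.45-fold that of day 0, past the minimum ratio, but the intervals overlap, and its locus covers only part of the annotated gene.

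Hk2, the inducible hexokinase that binds mitochondria (chromosome 6, 82724992 to 82774506 on mm10, minus strand), was at FPKM 6.66 (3.47 to 9.84) at day 0, 31.0 (17.1 to 45.0) at day 5 and 12.1 (6.52 to 17.7) at day 15. Day 5 was 4.66-fold higher than day 0 and apart from it. The day 15 interval overlaps both other days only in part, reaching from inside the day 0 range to just inside the day 5 range. Hk1, the constitutive hexokinase, was at 22.9, 36.4 and 41.4, with no days apart. Of the summed hexokinase FPKM, Hk2 made up 22.5% at day 0, 46.0% at day 5 and 22.7% at day 15.

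Phosphofructokinase, the committed step of glycolysis, is built from 3 subunits with different patterns. Pfkp, the platelet-type subunit (chromosome 13, 6548157 to 6648771, minus strand), was at FPKM 10.95 (4.01 to 17.9) at day 0, 40.8 (19.2 to 62.4) at day 5 and 39.6 (19.4 to 60.0) at day 15. It was apart from day 0 on both days, 3.73-fold and 3.62-fold higher, with lower bounds just above the upper bound of day 0. Its locus reaches past the gene and exons of Pitrm1 lie on the other strand, and no strandedness is given for the libraries, so reads of these genes could be mixed. Pfkl, the liver-type subunit, was at 19.7 (10.5 to 28.9), 41.1 (22.6 to 59.5) and 32.7 (17.8 to 47.5), past the minimum ratio at day 5 but with overlapping intervals. Pfkm, the muscle-type subunit, had lower values after the burn on the locus that names it alone, 13.5 (5.17 to 21.9) against 7.01 (1.86 to 12.2) and 6.87 (2.102 to 11.6). Its locus merged with Senp1 was at 30.1, 24.9 and 26.2 with lower bounds of 0. Both loci have the same coordinates and span Senp1, and how reads were divided between them is unknown, so the Pfkm values are uncertain. Counting the single-gene loci, Pfkp made up 24.8% of the summed FPKM of the 3 subunits at day 0, 45.9% at day 5 and 50.1% at day 15, while Pfkm made up 30.6%, 7.89% and 8.68%. The sum itself was 44.2 at day 0 and 88.9 and 79.2 after the burn. Pfkfb3, which makes the fructose 2,6-bisphosphate that activates phosphofructokinase, was at 4.38, 6.16 and 4.32.

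The enzymes of the middle of the pathway were abundant, and none was apart between any days. Aldoa, the main aldolase, was at FPKM 297 before the burn, 457 at day 5 and 331 at day 15. Aldoc, the aldolase best known from brain, went the other way, with 17.7 (9.14 to 26.3), 7.24 (3.23 to 11.3) and 12.2 (5.80 to 18.6). Its day 5 value was past the minimum ratio, and its intervals overlap by a narrow margin. Tpi1, which interconverts the triose phosphates, was at 99.97, 142 and 143 on a locus that also spans Spsb2. Gapdh, the dehydrogenase that yields NADH, was at 446 (249 to 643), 969 (535 to 1404) and 635 (356 to 915), 2.17-fold higher at day 5 with intervals that overlap. Gapdh is often used as a reference gene, and here its day 5 value was past the minimum ratio. Pgk1, the first enzyme of the pathway to yield ATP, was at 107, 184 and 173, and Pgam1, a mutase, at 71.8, 105 and 83.8. Exons on the other strand also overlap those of Aldoa (Fam57b) and Gapdh (Iffo1), and likewise those of Slc2a1, Hk1, Gpi1, Pfkm, Tpi1, Hif1a, Car9, Ndrg1 and Ankrd37, with the same uncertainty as for Pfkp. Gpi1, which turns glucose 6-phosphate into fructose 6-phosphate, was at 45.1, 70.9 and 61.03.

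Eno1, the main enolase, was at FPKM 122.3 (70.6 to 174) at day 0, 304 (158 to 450) at day 5 and 208 (110 to 306) at day 15, 2.48-fold higher at day 5 with overlapping intervals. The near-identical Eno1b was at 2.77, 6.99 and 4.93, so that reads of the copies may have been split between them. Eno2, the neuronal enolase, was low on all days (2.15, 2.54 and 3.78). Pkm, the pyruvate kinase gene of most tissues, was at 235 (133 to 336), 383 (220 to 547) and 418 (200 to 636), and was the only one of the 4 most abundant members whose highest value was at day 15.

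The genes that act on pyruvate and lactate varied among themselves. Ldha, the lactate-forming subunit of lactate dehydrogenase, was the most abundant member at day 0 with FPKM 580.4 (310 to 851), and stood at 873 (445 to 1302) at day 5 and 702 (360 to 1044) at day 15. Ldhb, the other subunit, which favours the return of lactate to pyruvate (chromosome 6, 142490249 to 142507957, minus strand), was at 20.4 (8.68 to 32.0), 73.6 (38.8 to 108.4) and 45.8 (24.0 to 67.7). Day 5 was 3.61-fold higher than day 0 and apart from it, and day 15 was 2.25-fold higher with overlapping intervals. Ldhb still made up only 3.39% of the summed FPKM of the pair at day 0, 7.77% at day 5 and 6.13% at day 15.

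Slc16a3 encodes MCT4, the transporter that carries lactate out of glycolytic cells (chromosome 11, 120948484 to 120959406, plus strand). It was at FPKM 4.83 (0.980 to 8.69) at day 0, 56.0 (15.5 to 96.5) at day 5 and 17.7 (3.76 to 31.6) at day 15. Day 5 was 11.6-fold higher than day 0 and apart, the largest ratio of the glycolysis group. Day 15 was 3.66-fold higher with overlapping intervals. Pdk1, the kinase that switches off pyruvate dehydrogenase and is itself a classical HIF target, was at 16.3 (0 to 35.1), 6.06 (0 to 17.2) and 8.60 (0 to 25.3). The Pdk1 locus also spans Dlx1, Dlx2, Hat1, Itga6 and Metap1d, is 16.8 times as long as the gene, and has a lower bound of 0 on all days, so its values are uncertain.

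Glycolysis transcripts were summed over the 22 loci that name 1 gene, of which those of Pfkm, Pfkp, Aldoa, Tpi1 and Pdk1 also span other coding genes. The sums were FPKM 2194 before the burn, 3882 at day 5 and 3040 at day 15, ratios of 1.77 and 1.39 to day 0. Ldha, Gapdh, Aldoa and Pkm made up 71.0%, 69.1% and 68.6% of these sums. Without them the sums were 635, 1199 and 953, with ratios of 1.89 and 1.501, so the order of the days was the same without the abundant genes. By locus, 4 of 23 were higher and apart at day 5 (3.42% of all loci) and 1 at day 15 (2.91% of all loci). On both days 0 were lower and apart, where the shares over all loci were 2.5% and 1.81%. The median log2 ratio of the group was 0.65 at day 5, 0.51 at day 15 and -0.31 between day 15 and day 5.

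**Figure D2:**
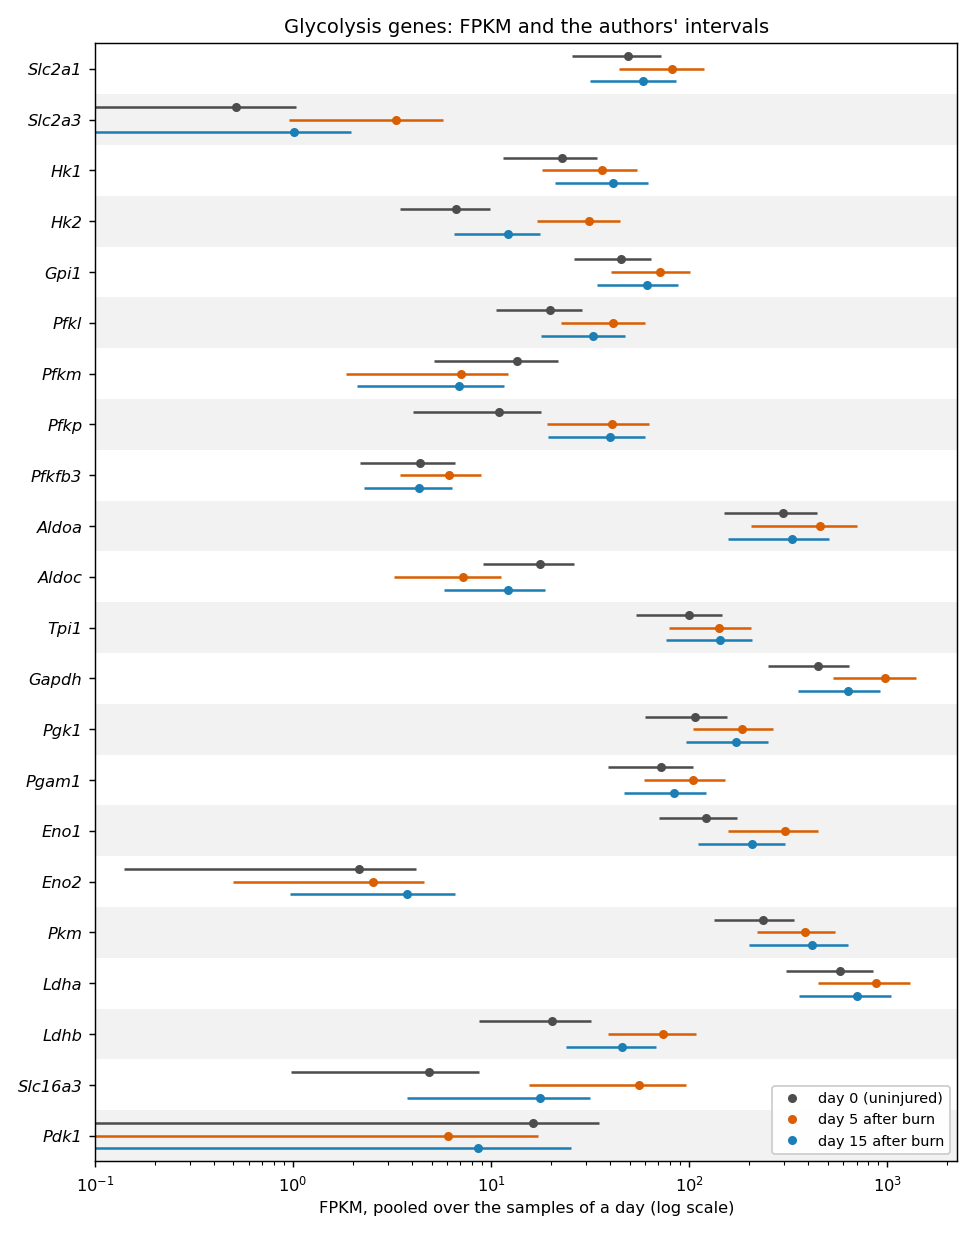
FPKM of the 22 glycolysis genes, each on the locus that names it alone (log axis), at day 0 (grey), day 5 (orange) and day 15 (blue). Points are the value pooled over the 2 samples of a day and lines are the authors' interval, which runs off the left edge where its lower bound is below 0.1. Slc16a3, Hk2, Pfkp and Ldhb are the genes whose day 5 line lies clear of day 0, and Pfkm, Aldoc and Pdk1 are the genes whose day 5 point lies to the left of day 0.

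Of the 5 oxygen-sensing genes, 2 had a higher value at day 5 than at day 0 and 3 a lower one, where 44.9% of all loci had a higher value. Hif1a, the alpha subunit that drives the glycolytic targets, was at FPKM 38.4 (21.2 to 55.6) at day 0, 52.4 (27.4 to 77.4) at day 5 and 36.4 (20.3 to 52.4) at day 15. Epas1, which encodes the related subunit HIF2 alpha, was at 60.7 (35.1 to 86.3), 29.6 (17.4 to 41.8) and 42.1 (25.0 to 59.1). Neither was apart between any days, though the Epas1 value at day 5 was past the minimum ratio. Hif1a made up 38.7% of the summed FPKM of the pair at day 0, 63.9% at day 5 and 46.4% at day 15. HIF alpha is regulated mainly at the level of protein, which these data do not measure.

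Egln3 encodes PHD3, a prolyl hydroxylase that marks HIF alpha for breakdown and is itself a HIF target in many cells (chromosome 12, 54178981 to 54203874, minus strand). It was at FPKM 100.7 (48.6 to 152.8) at day 0, 16.5 (8.95 to 24.0) at day 5 and 20.2 (10.9 to 29.5) at day 15. Both burn values were apart from day 0, 6.11-fold and 4.99-fold lower. Egln1, the prolyl hydroxylase PHD2 that is the main oxygen sensor in most tissues, was at 9.33 (4.92 to 13.7), 11.7 (6.16 to 17.3) and 15.1 (8.21 to 22.1). Egln3 thus made up 91.5% of the summed FPKM of Egln1 and Egln3 at day 0, 58.4% at day 5 and 57.1% at day 15. Their summed values were 110.0, 28.2 and 35.3. Egln2, a related prolyl hydroxylase outside the set, was not counted in these sums and was at FPKM 18.0, 10.2 and 12.4. These shares therefore describe the pair and not the whole family. Vhl, which recognises hydroxylated HIF alpha for ubiquitylation, was at 10.2 (3.75 to 16.7), 5.92 (1.78 to 10.1) and 7.12 (2.36 to 11.9). The median log2 ratio of the 5 genes was -0.70 at day 5 and -0.47 at day 15.

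Among the 11 HIF targets outside glycolysis, 2 were higher and apart at day 5 (3.42% of all loci) and at day 15 (2.91%). On both days 0 were lower and apart (2.5% and 1.81% of all loci). The median log2 ratio was 0.96 at day 5 and 0.75 at day 15. Car12, a carbonic anhydrase of the outer cell membrane that helps set pH around the cell (chromosome 9, 66713608 to 66767168, plus strand), was at FPKM 4.17 (1.90 to 6.44) at day 0, 124 (69.0 to 178.2) at day 5 and 128 (70.4 to 185.6) at day 15. The folds of 29.6 and 30.7 were the largest of the 38 members. The day 5 and day 15 values nearly coincide. Car9, the related carbonic anhydrase that is a standard hypoxia marker, was low on all days with 1.76 (0 to 6.57), 1.50 (0 to 6.21) and 2.29 (0 to 8.02) on a locus that also spans Tpm2. Car12 made up 70.3%, 98.8% and 98.2% of the summed FPKM of the pair.

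Bnip3 and Bnip3l encode related receptors that mark mitochondria for removal, and their values went in opposite directions. Bnip3 (chromosome 7, 138890836 to 138909506, minus strand) was at FPKM 26.9 (8.21 to 45.6) at day 0, 102 (54.9 to 148.8) at day 5 and 94.2 (49.8 to 138.6) at day 15, 3.79-fold and 3.50-fold higher and apart on both days. Bnip3l was at 151 (81.3 to 221.3), 92.3 (53.9 to 130.6) and 109 (60.8 to 157.2), with overlapping intervals. Exons of the predicted gene Gm45507 lie on the other strand of the Bnip3 locus, so some reads may belong to either. Bnip3 made up 15.1% of the pair at day 0, 52.5% at day 5 and 46.4% at day 15.

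**Figure D3:**
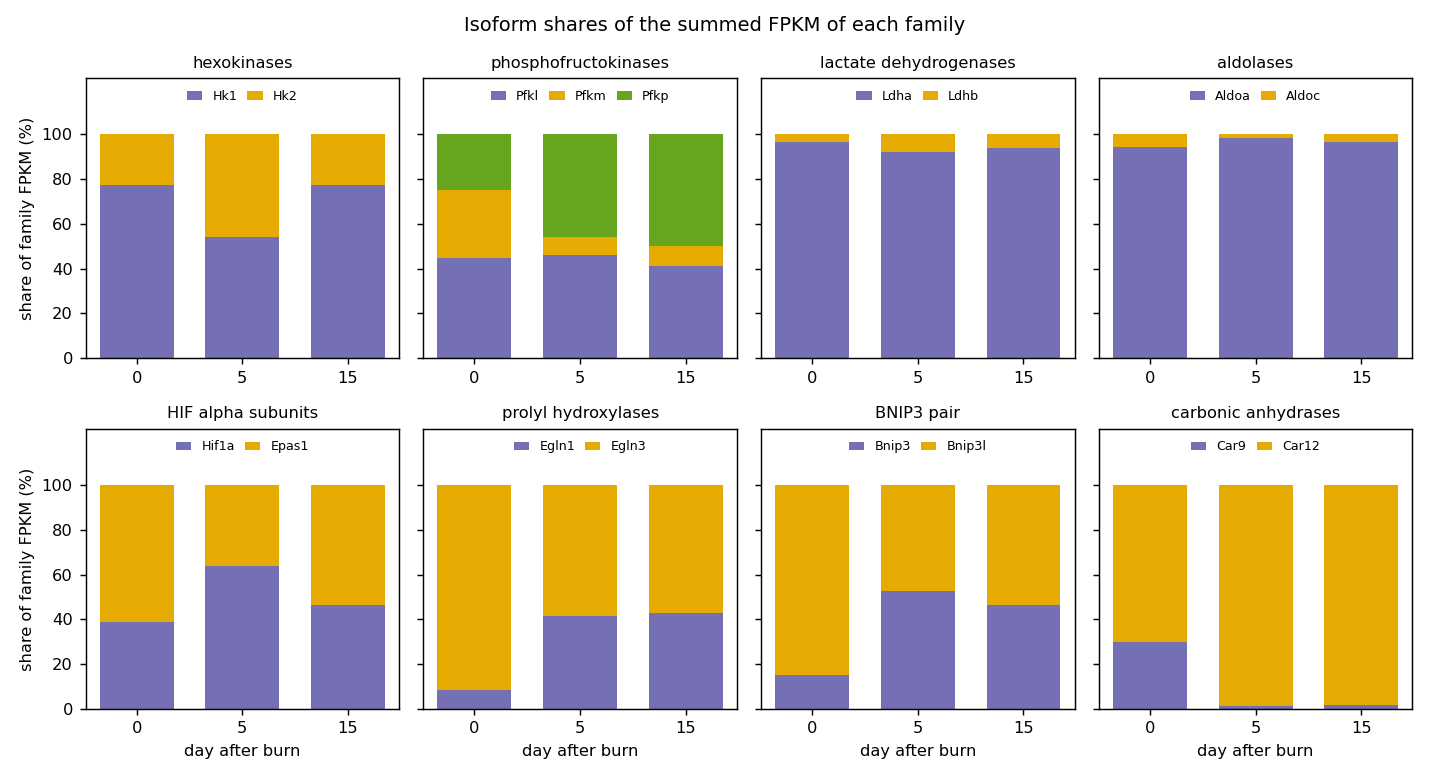
Share of each gene in the summed FPKM of its family (%, bars stacked to 100) by day after the burn, for 8 families of related members. Egln2 is outside the set and is not part of the prolyl hydroxylase bars. The shares of Hk2 (22.5%, 46.0%, 22.7%), Hif1a (38.7%, 63.9%, 46.4%), Bnip3 and Car12 are highest at day 5, and those of Pfkp and Egln1 at day 15. All of these shares are higher than at day 0 on both days after the burn, that of Hk2 only barely at day 15.

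The remaining targets were not apart on any day. Ero1l, an oxidase that forms disulfide bonds in the endoplasmic reticulum, was at FPKM 9.68 (4.78 to 14.6), 23.3 (12.4 to 34.2) and 25.7 (13.9 to 37.5), past the minimum ratio on both days after the burn. Ddit4, the stress-induced inhibitor of mTORC1, was at 4.17 (1.35 to 6.98), 14.5 (6.70 to 22.3) and 8.35 (3.29 to 13.4). Its day 5 value was 3.48-fold that of day 0, with intervals that overlap only at their edges. Ankrd37, a small ankyrin-repeat protein gene, was at 2.93 (0 to 14.6), 9.71 (0 to 30.5) and 9.14 (0 to 30.6), past the minimum ratio on both days after the burn, on a locus that also spans Lrp2bp and Ufsp2.

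P4ha1 and P4ha2 encode alpha subunits of the enzyme that hydroxylates collagen. P4ha1 was at FPKM 13.4 (7.14 to 19.7), 20.1 (9.47 to 30.8) and 15.6 (8.44 to 22.8), and P4ha2 at 5.58 (0 to 11.4), 11.8 (3.20 to 20.4) and 10.1 (3.50 to 16.6). Adm, which encodes the vasodilator peptide adrenomedullin, was at 16.1 (5.14 to 27.0), 27.0 (11.6 to 42.4) and 12.6 (3.67 to 21.6). Ndrg1, a stress-responsive gene of epithelia, was at 37.2, 32.4 and 32.0, each inside the interval of the other days.

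**Figure D4:**
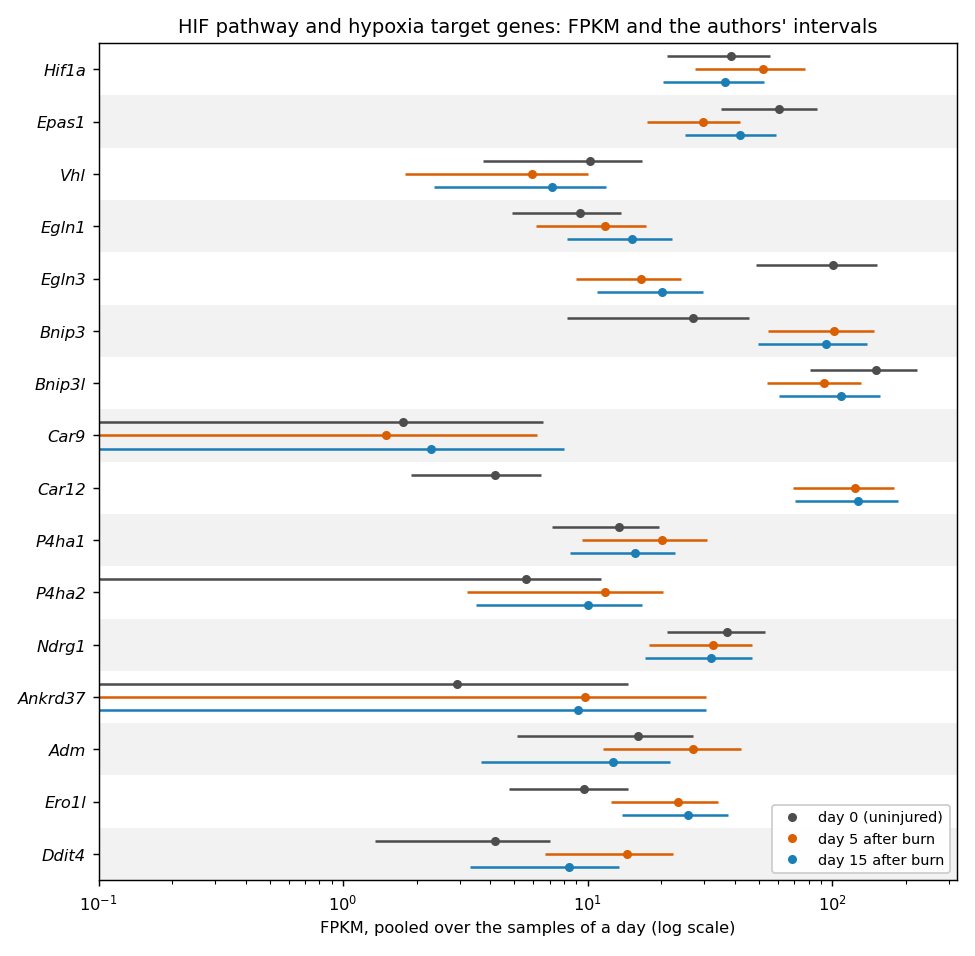
FPKM of the 5 genes of the HIF machinery and the 11 HIF targets (log axis) at day 0 (grey), day 5 (orange) and day 15 (blue), with the authors' interval as a line that runs off the left edge where its lower bound is below 0.1. Car12 and Bnip3 lie clear to the right of day 0 on both days after the burn and Egln3 clear to the left.

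Several members passed the minimum ratio without having intervals apart. Regardless of the intervals, 13 members were higher by the minimum ratio at day 5 (10.8% of all loci) and 4 were lower (11.1%). The 7 higher members with overlapping intervals were Slc2a3, Pfkl, Gapdh, Eno1, Ankrd37, Ero1l and Ddit4, and the 3 lower ones Aldoc, Pdk1 and Epas1. At day 15 these counts were 7 higher (8.36% of all loci) and 1 lower (9.43%). Between day 15 and day 5, Slc2a3, Hk2, Slc16a3 and Adm were lower by the minimum ratio, 4 loci of 39 against 3.35% of all loci. These 4 are a glucose transporter, a hexokinase, the lactate exporter and a vasoactive peptide.

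Pathway neighbours outside the set were examined from lists. Over all loci tested for day 5 against day 0, 3.42% were higher and apart, 2.5% lower and apart, and the median log2 ratio was -0.09. For day 15 against day 0 these values were 2.91%, 1.81% and -0.10. Of 37 other glycolysis and gluconeogenesis genes, 27 passed the FPKM minimum for day 5 against day 0, with 0 higher and 1 lower among those apart and a median log2 ratio of -0.07. The lower one was Mpc2, a subunit of the carrier that brings pyruvate into mitochondria, at FPKM 210 (112 to 308) at day 0, 53.0 (22.9 to 83.1) at day 5 and 61.8 (28.9 to 94.7) at day 15. At day 15, 25 genes passed, with Pgm1 higher and apart (13.0, 28.9 and 38.2) and Mpc2 and Eno3 lower and apart. Pgm2, the related gene on the list, was at 13.3, 15.6 and 12.8 and was not apart. Eno3, the muscle enolase, was at 31.4 (16.4 to 46.3), 17.1 (8.23 to 26.0) and 4.38 (1.399 to 7.37), and was also the 1 gene of the list apart between day 15 and day 5. Pgam2, the muscle mutase, was at 23.2, 14.8 and 2.88 and was not apart. The summed FPKM of 14 skeletal muscle markers moved the same way, 773 at day 0, 464 at day 5 and 112 at day 15 (343, 207 and 56.1 without Myl1), and its part in these values was not tested.

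In the pyruvate dehydrogenase and tricarboxylic acid cycle list, 1 of 23 genes was higher and apart at day 5 and at day 15. This is near the shares of 3.42% and 2.91% over all loci. The medians were 0.18 and 0.03, against -0.09 and -0.10 over all loci. The gene apart was Sdhc, a membrane anchor of succinate dehydrogenase, at FPKM 30.2 (21.0 to 39.5), 92.1 (53.7 to 130.6) and 103 (60.9 to 144.5). In the pentose phosphate pathway 0 of 8 genes were apart, with medians of -0.48 and -0.30. Its transketolase gene Tkt, on a locus merged with Mir3076 and a major protein of the corneal epithelium, was at 1275 (209 to 2341), 187 (101.1 to 273) and 184 (99.7 to 268.5). Of 17 other regulators of HIF, 0 were apart, and Arnt, the partner of the alpha subunits, was at 16.9, 17.2 and 15.1.

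Of 39 other hypoxia targets, on 41 loci, 39 loci passed at day 5. Of these, 5 were higher and apart (3.42% of all loci) and 1 lower and apart (2.5%). Their median was 0.19, against -0.09 over all loci. Igfbp3, which binds insulin-like growth factors, was at FPKM 2.21 (0.342 to 4.07), 42.0 (24.1 to 59.8) and 18.5 (12.1 to 25.0). Hmox1, the haem-degrading oxygenase, was at 3.53, 39.8 and 26.8. Lox and Plod2, which crosslink and modify collagen, were at 1.79, 18.6 and 9.90 and at 1.99, 7.83 and 4.86. At day 15, Igfbp3, Hmox1 and Lox were higher and apart, where 2.91% of all loci were. Ppp1r3c, which promotes glycogen synthesis, was lower and apart on both days, at 127 (66.8 to 187.8) against 0.389 (0 to 0.854) and 0.414 (0 to 0.917). Vegfa, the vessel growth factor, was at 4.04, 8.43 and 4.76 and was not apart.

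Markers of several cell types differed between the days in summed FPKM, and their part in the member values was not tested. Several of these sums rest on 1 or 2 abundant genes, which were picked out after their values were seen. Over all loci tested against day 0, 3.42% were higher and apart at day 5 and 2.91% at day 15. The shares lower and apart were 2.5% and 1.81%. Some blood endothelial markers, too, passed the FPKM minimum only through a day after the burn. The 16 corneal epithelial markers summed to FPKM 26720 before the burn and 3536 and 5181 on days 5 and 15, with Krt12 left without a value at day 0 by the authors' status of too many fragments. Slurp1 and Aldh3a1 carried most of that difference, and without them the sums were 5791, 3231 and 4315. Of the 15 that passed at day 5, 5 were lower and apart and 0 higher and apart, and 4, namely Krt14, Cdh1, Epcam and Elf3, had a higher value. Of the 18 neutrophil marker loci, 13 passed the FPKM minimum at day 5 against day 0, several of them only through their day 5 value. Of these 13, 9 lay above day 0 and apart from it, a share that this filter favours. The neutrophil sum went from 39.5 to 1717 and then 885. Ly6g was not matched, Elane was at 0 on all days and Mpo at 0, 0.0194 and 0. Ngp and Camp were below the FPKM minimum on all days. Ltf alone gave 1249 of the day 5 sum and 762 of the day 15 sum, and without it the sums were 23.8, 468 and 123. Of 15 macrophage markers, 5 were higher and apart at day 5 and 8 at day 15, with sums of 850.3, 1550 and 2322. Without Lyz2 and Arg1 the sums were 688, 917 and 984. The Cd68 locus, which is merged with Eif4a1, Senp3 and other genes, gave 579, 587 and 559 of these sums. Of the blood endothelial markers, 6 of 14 were higher and apart on each day, with sums of 43.5, 225 and 168, or 31.4, 107 and 112 without Erg. The red blood cell sum was 18.1, 323 and 116, or 10.2, 51.6 and 18.4 without Hba-a2. Without Hba-a2 and Hbb-bs it was 8.43, 12.1 and 5.50, so the difference rests on these globin genes. Alas2 went the other way (8.27, 5.79 and 4.01), and Hba-a1 was not matched. The conjunctival and goblet cell sum was 1819, 4163 and 10444, or 1062, 2093 and 3710 without Krt4. Without Krt4 and Krt13 it was 293, 1328 and 1439. The 12 keratocyte markers held 3 higher and 4 lower and apart at day 5. Lens, photoreceptor and pigment markers were detected on all days, the lens sum at 446, 58.3 and 302, the photoreceptor sum at 97.6, 42.3 and 196, and the pigment sum at 371, 88.4 and 256. Of 14 reference genes, 0 were apart at day 5 and 1 at day 15.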

How the data were processed

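Poly(A)-selected libraries of whole corneas were sequenced in 6 samples, 2 for each of 3 groups. The authors deposited 1 gene table of FPKM, 1 value per group with an interval and a status, pooled over the samples of the group. Build mm10 is listed in the submitters' processing notes with Bowtie2 2.2.6, TopHat2 2.1.0, Cuffdiff (no version) and Cufflinks 2.2.1; counting options and strandedness are not given in the sources used here. Among the 28539 loci, 496 name more than 1 gene and 23889 have a symbol. Columns for single samples number 0, so depth and replicate spread are unknown.

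Members and lists were chosen with earlier results of these data known. All 38 members are named. Intervals were printed for all members apart, for all past the minimum ratio and for some others, and promoters for up to 3 members apart in each direction. Apart required status OK, FPKM of at least 1, a log2 ratio of (FPKM + 1) of at least 1 in size and intervals that do not overlap. No test was run. Medians, counts and sums were computed with Python 3.11.15, numpy 2.4.6 and pandas 2.3.3. Only the rule for apart and a median over a set of loci were tried on simulated data. The simulated noise was a fraction of the half-width of the authors' intervals. Sums, shares and motif counts were not tried in this way. Positions are 1-based on mm10, and overlapping genes come from GENCODE M21. Alternatives varied the pseudocount, the FPKM minimum, the ratio, the intervals, the scaling and merged loci. No comparison of protein sequences was made. One gene of the list of other hypoxia targets is not reported here by name.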

Additional observations from a re-analysis of the deposited data

How the results depend on the processing

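The counts of members apart depended on the interval rule. Without it, with loci as listed or with loci of 1 symbol summed, 13 members were higher and 4 lower at day 5 against day 0, 7 were higher at day 15 against day 0, and 4 were lower at day 15 against day 5. All 88 recomputed ratios of members apart kept their direction, which could not have come out otherwise. Only the pseudocount and the scaling change a ratio, and these members were picked for large ratios. Of 83 recomputed counts, medians and motif shares, 75 stayed near the reported value, the others being the counts above. Scaling the median locus with FPKM of at least 5 to 0 moved all log2 ratios by 0.11 at day 5 and 0.08 at day 15. No paired analysis was possible because the table holds no column per sample, and no replicate could be left out for the same reason. Depth is unknown. The authors' intervals set the precision: at FPKM of at least 5 their median half-width was 47.6%, 47.4% and 46.9% of the member's FPKM at days 0, 5 and 15, so that moderate differences leave the intervals overlapping.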
